A study of Mus musculus with 11 samples.

Results

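Expression of 34 genes of the oligodendrocyte lineage and of myelin was described in the hippocampus of CD and FD F1 mice. The genes were taken from a list of names, which was matched through GENCODE to the Ensembl identifiers of the count tables. All 34 names were found among the 38293 genes of the tables, and each reached 10 counts when summed over the 11 mice, as did 20589 genes in all. The lowest count of any of the 34 genes in any mouse was 20, for Ninj2.

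RNA of the whole hippocampus was sequenced from 6 CD mice (3 males and 3 females) and 5 FD mice (2 males and 3 females) at 14 weeks of age. All were wildtype F1 offspring of 129S6/SvEv dams and C57BL/6J males. CD dams received a diet with 2.3 mg folic acid (FA) per kg before mating, FD dams received 40 mg FA per kg, and all animals were kept on the 2.3 mg diet from mating onwards. The litters of these 11 mice were not given in the sources used here, so the spread between mice may include litter effects. The libraries of CD female 1, CD female 3 and FD female 3 stood apart by their share of reads with several alignments, and counts of genes called are given with and without them.

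Oligodendrocytes wrap axons with myelin, a stack of membrane that speeds conduction, and they also supply axons with metabolites. They arise throughout life from precursor cells that carry the receptor PDGFRA and the proteoglycan NG2 (Cspg4). Precursors pass through a short newly formed stage, marked by GPR17 and BCAS1, and then express the genes of the myelin sheath under factors such as OLIG2, SOX10 and MYRF. In the hippocampus these cells lie mainly in the fibre tracts that enclose it, with precursors spread through all layers.

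The 34 genes were expressed at very different levels. Per kb of exon, Mbp, which encodes the protein that compacts the inner faces of the myelin membrane, had the highest level, with a mean of 204 CPM (library-scaled counts, with TMM normalization). It was followed by Qdpr, an enzyme that regenerates tetrahydrobiopterin and is also made by other cells, at 108 CPM per kb, and by Cnp, an enzyme of non-compact myelin, at 91.6 CPM per kb. The raft protein Mal and Mobp, another protein of compact myelin, had 89.0 and 80.6 CPM per kb. At the other end stood the choline phosphodiesterase Enpp6 with 1.27, Ninj2 with 1.58 and Cspg4 with 1.67 CPM per kb. In whole tissue, fewer cells of a type and less RNA per cell cannot be told apart, and this holds for every value that follows.

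The start regions of 4 of the myelin genes are shown because these genes varied together between mice, as described further on. Mag and Cnp had the closest pair of profiles, Opalin, a membrane protein of mature oligodendrocytes, had the highest median correlation with the other genes, and Mobp held the most matches to one of the letter strings searched. Each sequence runs 5′ to 3′ on the strand of its gene, from 250 bases before to 50 bases after the start given by RefSeq for GRCm38.p6. Capitals mark ACAAAG (letters that SOX factors recognise), CAGCTG (an E-box of the type that factors like OLIG2 recognise) and CTGGNAC, each searched on both strands. In CTGGNAC the N is any base, so the string takes in letters that MYRF recognises but is broader than them. Binding was not tested.
Mag (chr7:30914814-30915113, minus strand): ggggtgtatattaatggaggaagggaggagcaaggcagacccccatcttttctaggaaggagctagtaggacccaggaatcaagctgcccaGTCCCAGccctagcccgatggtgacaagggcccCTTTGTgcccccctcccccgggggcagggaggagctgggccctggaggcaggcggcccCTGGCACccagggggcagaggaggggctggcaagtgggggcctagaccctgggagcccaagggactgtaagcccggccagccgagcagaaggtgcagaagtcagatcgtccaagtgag
Cnp (chr11:100574689-100574988, plus strand): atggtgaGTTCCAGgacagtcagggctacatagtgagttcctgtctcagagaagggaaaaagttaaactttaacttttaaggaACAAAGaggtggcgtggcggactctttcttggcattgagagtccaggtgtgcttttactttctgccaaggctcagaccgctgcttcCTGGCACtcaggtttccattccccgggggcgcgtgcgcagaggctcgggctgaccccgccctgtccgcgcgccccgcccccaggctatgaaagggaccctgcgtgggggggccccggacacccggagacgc
Opalin (chr19:41077064-41077363, minus strand): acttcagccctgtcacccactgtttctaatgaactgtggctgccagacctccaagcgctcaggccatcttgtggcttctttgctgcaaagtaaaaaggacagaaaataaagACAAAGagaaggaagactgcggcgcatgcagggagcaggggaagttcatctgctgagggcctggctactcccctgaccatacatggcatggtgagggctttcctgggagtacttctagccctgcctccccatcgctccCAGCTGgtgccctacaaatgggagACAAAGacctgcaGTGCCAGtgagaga
Mobp (chr9:120149492-120149791, plus strand): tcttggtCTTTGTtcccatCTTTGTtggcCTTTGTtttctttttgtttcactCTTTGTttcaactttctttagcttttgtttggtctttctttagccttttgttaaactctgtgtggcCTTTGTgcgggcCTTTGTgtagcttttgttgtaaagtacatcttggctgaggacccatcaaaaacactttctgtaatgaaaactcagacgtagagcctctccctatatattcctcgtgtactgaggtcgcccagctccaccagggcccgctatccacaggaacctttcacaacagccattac
RefSeq start regions were found for 24 of the 34 genes, 30 regions in all since some genes have several starts. ACAAAG was present in 8 of these 30 regions (26.7%) and in 18.7% of all 32851 regions of the same length. CAGCTG was present in 4 (13.3%) against 16.3% of all, and CTGGNAC in 9 (30%) against 19.3% of all. Overlapping regions of Mag share matches, so some are counted more than once. By gene, ACAAAG was present in 6, CAGCTG in 4 and CTGGNAC in 7 of the 24 genes. The Mobp region held 6 matches to ACAAAG, all before the start, while the Mag and Cnp regions each held 1 match to ACAAAG and 2 to CTGGNAC.

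No gene of the lineage passed the test between CD and FD F1 mice. Over all genes, 14 of 20589 passed the adjusted p-value threshold of 0.1 (0.068%), and 0 of the 34 genes did, in edgeR's quasi-likelihood test adjusted by Benjamini-Hochberg. The count was also 0 with DESeq2. At an unadjusted p under 0.05 the count was 0 as well, against 2.59% of all genes. The fit was also run with mice blocked by sex and replicate number, where CD male 3 has no partner and carries no weight. There 25 genes passed (0.121%) and 0 of the 34 did. In that fit 9 of the 34 had an unadjusted p under 0.05 (edgeR), against 1395 of the 20589 genes, which is a smaller share. The values of FD and CD mice overlapped in all 34 genes, while they did not in 0.505% of all genes. In 24 of the 34 genes the log2 fold change (FD over CD) lay below 0, against 51.8% of all genes, and its median was -0.03 (-0.0040 over all genes). The 95% interval of the fold change lay within 0.5 log2 units on either side of 0 for 33 of the 34 genes and within 0.3 units for 19.

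The myelin membrane and cytoskeleton genes had log2 fold changes between -0.12 for Mag and 0.02 for Ermn. Mag encodes an adhesion molecule of the innermost myelin layer. In CD mice it ranged from 134 to 242 CPM with a median of 164, and in FD mice it had 179.9, 126 and 189 CPM in females 1 to 3 and 137 and 145 CPM in males 1 and 2. The FD values thus lay within or just under the CD range, and the groups overlapped (log2 fold change -0.12, 95% interval -0.41 to 0.16, adjusted p = 0.99996, edgeR). Mbp ranged from 1479 to 2102 CPM with a median of 1776 in CD mice, and FD mice had 1957, 1449.8, 1724, 1702 and 1635 CPM in the same order. Here too the FD mice spread over most of the CD range, with a log2 fold change of -0.05 (95% interval -0.24 to 0.13). Mobp and Mal, with fold changes of 0.0022 and -0.0012 on the log2 scale and standard errors of 0.095 and 0.11, had the fold changes nearest to 0. Cnp (-0.09), Cldn11 (-0.08), the surface protein Mog (-0.08), Opalin (-0.04) and the tetraspanin Tspan2 (0.01) lay between Mag and Ermn, a cytoskeletal protein of late oligodendrocytes.

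The same held for the enzymes, the junction and transport genes and the transcription factors. Among the enzymes of myelin lipids and metabolism (Ugt8a, Fa2h, Aspa, Enpp6 and Qdpr), log2 fold changes lay between -0.08 and 0.02. Ppp1r14a, an inhibitor of myosin phosphatase found in mature oligodendrocytes, had the lowest fold change of all 34 genes. It ranged from 4.30 to 8.39 CPM in CD mice with a median of 4.88, and FD mice had 5.90, 4.64, 5.09, 3.95 and 4.10 CPM. The FD males were lower than every CD mouse, the FD females lay inside the CD range, and the difference was not significant (log2 fold change -0.17, 95% interval -0.51 to 0.17, adjusted p = 0.99996, edgeR). The gap junction genes Gjb1 and Gjc3 had log2 fold changes of -0.04 and -0.0076. Trf (-0.07), the protease gene Adamts4 (-0.06), the matrix link protein gene Hapln2 (-0.05), the cytoskeletal gene Anln (-0.01), the adhesion gene Ninj2 (-0.07) and Cryab (0.01) stayed as close to 0. The values of the transcription factors were -0.12 for Sox10, -0.11 for Olig1, -0.03 for Myrf and 0.04 for Olig2. Nkx6-2, a homeobox factor of myelinating cells, had the widest interval of the 5 transcription factors, from -0.49 to 0.48 around -0.0089 on the log2 scale. Its values were 2.97 to 8.19 CPM with a median of 4.17 in CD mice and 6.28, 3.20, 5.38, 3.76 and 3.11 CPM in FD mice. The highest mouse was CD female 3 and the groups overlapped over nearly their whole range.

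Of the 5 genes of precursors and newly formed cells, 4 were measured with less spread (Pdgfra, Cspg4, Vcan and Gpr17). Pdgfra, the receptor through which precursors receive growth signals, ranged from 65.0 to 80.3 CPM with a median of 76.0 in CD mice. In FD mice it was 77.0, 77.5 and 73.8 CPM in females and 79.0 and 86.6 CPM in males. FD male 2 was above all CD mice and the other FD mice lay within the CD range. It had the smallest unadjusted p of the 34 genes, 0.189 (log2 fold change 0.08, 95% interval -0.04 to 0.21, adjusted p = 0.99996, edgeR). Cspg4, the matrix proteoglycan Vcan, Gpr17 and Bcas1 had log2 fold changes between -0.02 and 0.02.

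**Figure D1:**
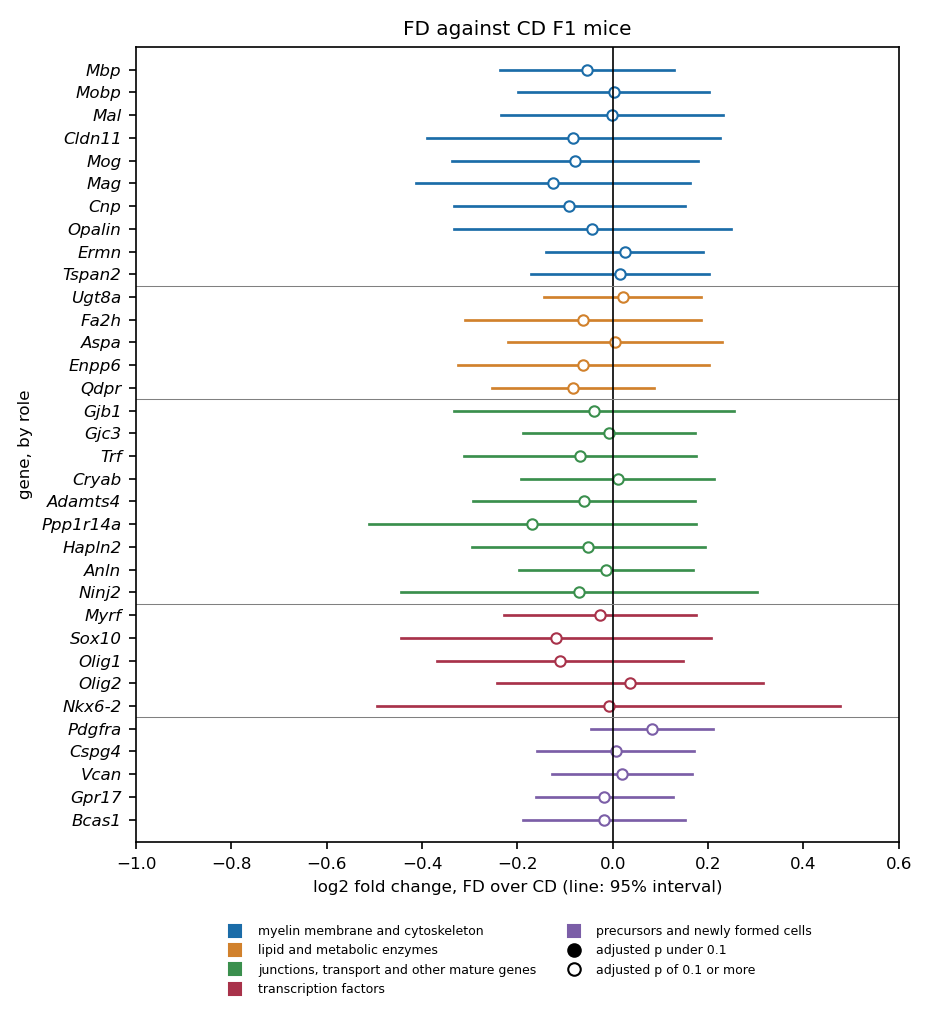
Log2 fold change of each of the 34 genes in FD over CD F1 mice (x axis, points) with its 95% interval (lines), ordered and coloured by role; 6 CD and 5 FD mice. Every interval crosses 0, and the fold changes run from -0.17 for Ppp1r14a to 0.08 for Pdgfra.

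The sign of the median log2 fold change depended on single mice. It was 0.03 without CD female 3 and 0.02 without FD female 2, that is on the other side of 0, and it was 0.06 in males alone and -0.13 in females alone. Without CD female 1, CD female 3 and FD female 3, the 3 libraries with over 15% of reads with several alignments, which were left out after seeing the data, it was 0.05, with 27 of the 34 genes above 0, 0 of the 34 called and 4 genes called in all (0.02%). With sex as a covariate it was -0.06, with 5 of the 34 genes above 0 and 0 called. No gene of the lineage passed the threshold for the interaction of diet and sex, as 0 of 20589 genes did (0%; edgeR, with 391 genes or 1.9% at an unadjusted p under 0.05). The interaction lay below 0 for 8 of the 34 genes, against 55.1% of all genes. Only Cryab, a small heat shock protein of mature oligodendrocytes, had an unadjusted interaction p under 0.05 (0.27 on the log2 scale, unadjusted p = 0.0464, edgeR).

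Variation between mice of the same group was larger in these genes than in most. The standard deviation (SD) of log2 CPM around the mean of each diet had a median of 0.22 over the 34 genes, against 0.13 over the 14437 genes that averaged 1 CPM or more, and 30 of the 34 genes were above the latter value. Nkx6-2 varied most, with an SD of 0.46 and a 2.76-fold range from the lowest to the highest mouse. Pdgfra, Cspg4, Vcan and Gpr17 were the 4 genes below that median, with SDs between 0.10 and 0.13. Outside the 34, the 23 further genes of precursors and newly formed cells had a median SD of 0.19. In 22 of the 34 genes the highest mouse exceeded the lowest by more than 1.5-fold.

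The spread had a simple order by mouse. CD female 3 was the highest mouse for 28 of the 34 genes, with a mean of 0.36 log2 units over the average of all mice. FD female 2 and CD male 3 were the lowest mice for 13 and 12 genes, with means of -0.21 and -0.19. FD female 1 was above average for 33 genes and CD male 1 for 2 genes. Cldn11, Mog, Cnp, Qdpr and Trf were each higher in CD female 1, CD female 3 and FD female 3, the libraries that stood apart, than in all other mice. Cnp had 374 to 454 CPM there and 260 to 358 CPM in the others. The remaining genes of the 34 overlapped, and the part of these libraries in the spread was not tested. The 10 myelin membrane and cytoskeleton genes summed to 4445 CPM in CD female 3, to 2967 CPM in CD male 3 and to 2889 CPM in FD female 2. Low sums were thus found in both diets and the highest in a CD mouse. The diet groups overlapped (2967 to 4445 CPM in CD mice and 2889 to 3843 CPM in FD mice). The 5 precursor and newly formed cell genes summed to 307 CPM in CD female 3. This lay within the range of 281 to 327 CPM over all mice. Of these 5, Bcas1 was highest (134 CPM) and Pdgfra (65.0 CPM) and Gpr17 (59.5 CPM) lowest in this mouse. Cspg4 and Vcan were neither. The 23 further genes of precursors and newly formed cells summed to 934 CPM in CD female 3, the lowest of all mice. The others ranged from 963 CPM in CD female 1 to 1156 CPM in FD male 1.

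**Figure D2:**
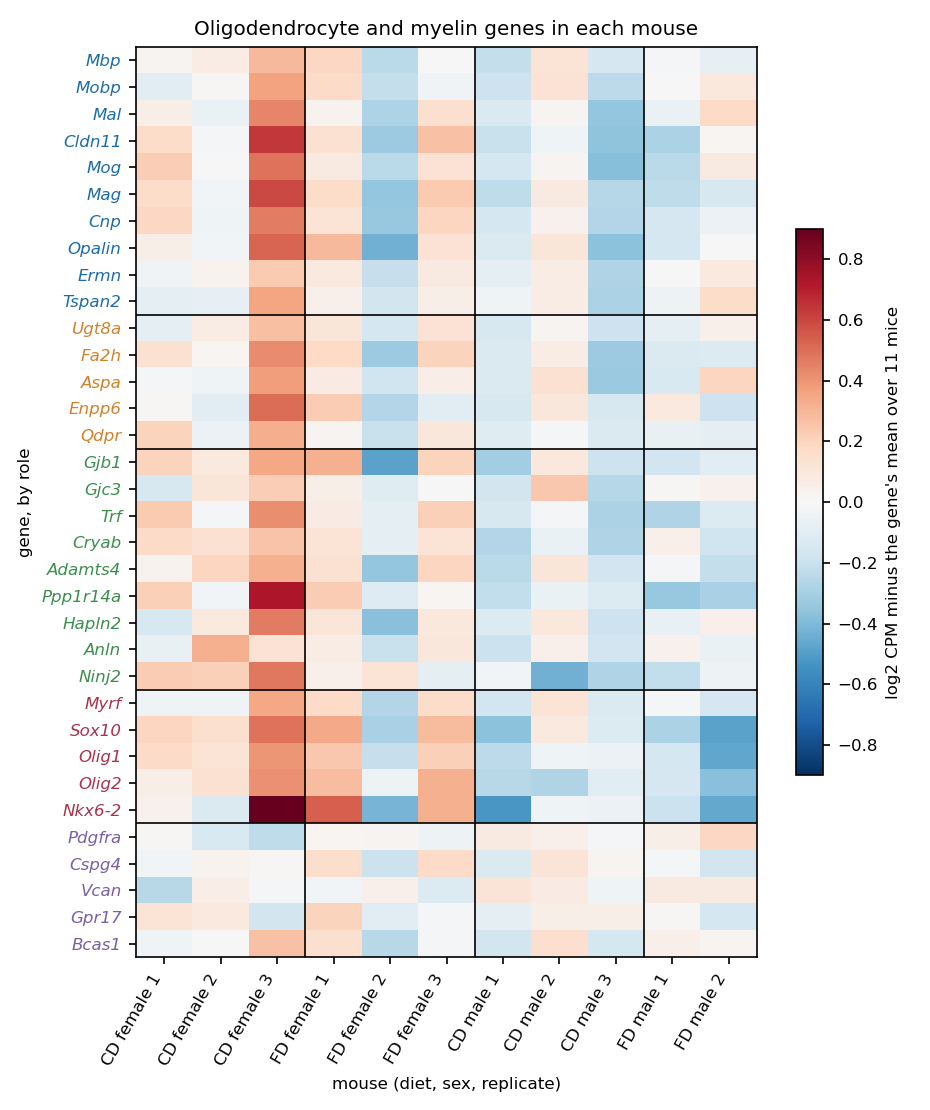
Log2 CPM of the 34 genes (rows, by role) in each of the 11 mice (columns, by sex and diet), shown as the difference from the mean of the gene over all mice; red is above and blue below that mean. CD female 3 is the highest mouse for 28 genes, FD female 2 and CD male 3 are the lowest for 13 and 12, and the rows of Pdgfra, Cspg4, Vcan and Gpr17 are pale.

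Markers of other cells and of neighbouring tissue were read in the same mice. Of 10 choroid plexus markers, 0 passed the threshold between CD and FD mice, and their sum was 91.8 CPM in CD female 3, the highest of all mice, against 28.9 to 62.9 CPM in the others. The choroid plexus markers Kcnj13 and Kcne2 were at 0 in some mice. Astrocyte markers (12 genes) summed to 5073 CPM in CD female 3, the lowest of the 11 mice, and to 5811 CPM in the highest. Striatum markers (10 genes) summed to 289 CPM in FD female 3 and to 199 to 225 CPM in the others, and 0 of the 10 passed the threshold or had a log2 fold change (FD over CD) below 0. Thalamus markers (10 genes) ranged from 147 to 178 CPM over all mice and neuron markers (12 genes) from 12342 to 14087 CPM. The part of other tissue in the spread of the myelin genes was not tested.

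The genes moved together across mice. After removing the mean of each diet, the median Pearson correlation over the 561 pairs of the 34 genes was 0.718 across the 11 mice, as a description without a test, and it was 0.698 after removing sex as well. The closest pairs were Cnp with Mag (r = 0.984), Cnp with Fa2h, which hydroxylates the fatty acids of myelin lipids (r = 0.981), and Cnp with Cldn11, the tight junction protein of myelin (r = 0.976). Depth, library and tissue piece are shared by all genes of a mouse. Without CD female 3, the median over the pairs of the 30 genes other than Pdgfra, Cspg4, Vcan and Gpr17 was 0.673, against 0.780 with all mice (these 4 genes were set apart after their values had been seen).

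Within this common pattern 4 of the 5 transcription factors, and 5 genes picked among those of mature cells, correlated more closely within each group than between the groups. Olig1, Olig2, Sox10 and Nkx6-2 had a median correlation of 0.917 among themselves, with r = 0.975 for Olig1 and Sox10. Mal, Mobp, Ermn, Tspan2 and Aspa had a median of 0.928 among themselves, and between these groups, which were chosen after the values had been seen, the median was 0.486. It fell to 0.207 without CD female 3 and rose to 0.739 without FD male 2. FD male 2 was the lowest mouse for Sox10, Olig1 and Olig2 (26.7, 42.5 and 17.5 CPM) while its Mobp level of 585 CPM was above the FD median of 549.6 CPM. Other genes of mature cells did not all follow this split. With Sox10, Mag had r = 0.878, Gjb1 and Adamts4 both 0.883 and Ppp1r14a 0.846, while Hapln2 had 0.641 and Gjc3 0.475. Cnp and Mag, which were in neither group, were closer to each other (r = 0.984) than any pair within the groups. Myrf, the factor that directly switches on myelin genes, was also in neither group. It correlated with the mean of the other 33 genes at r = 0.935 and with Mag at 0.922. With the factors it had 0.917 for Nkx6-2, 0.865 for Sox10, 0.812 for Olig1 and 0.700 for Olig2. With the 5 mature genes it had values from 0.708 for Tspan2 to 0.826 for Mobp.

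Pdgfra ran against the others. Its correlation with the 30 genes was negative in every case, with a median of -0.562 and the most negative value for Olig2 (r = -0.905). Without CD female 3, which had the lowest Pdgfra level (65.0 CPM), the median was -0.298 and the correlation was positive with 6 of the 30 genes. Vcan had a median of -0.308 with the 30 genes, Gpr17 one of 0.022 and Cspg4 one of 0.498. These medians were -0.351 for Vcan, 0.548 for Gpr17 and 0.657 for Cspg4 without CD female 3, and with sex also removed that of Vcan was -0.073 over all mice. Without the 3 libraries with over 15% of reads with several alignments, the medians were -0.170 for Pdgfra, -0.040 for Vcan, 0.577 for Gpr17 and 0.677 for Cspg4 over 8 mice. Bcas1, listed here for newly formed cells, followed the mature genes instead (r = 0.966 with Mobp).

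**Figure D3:**
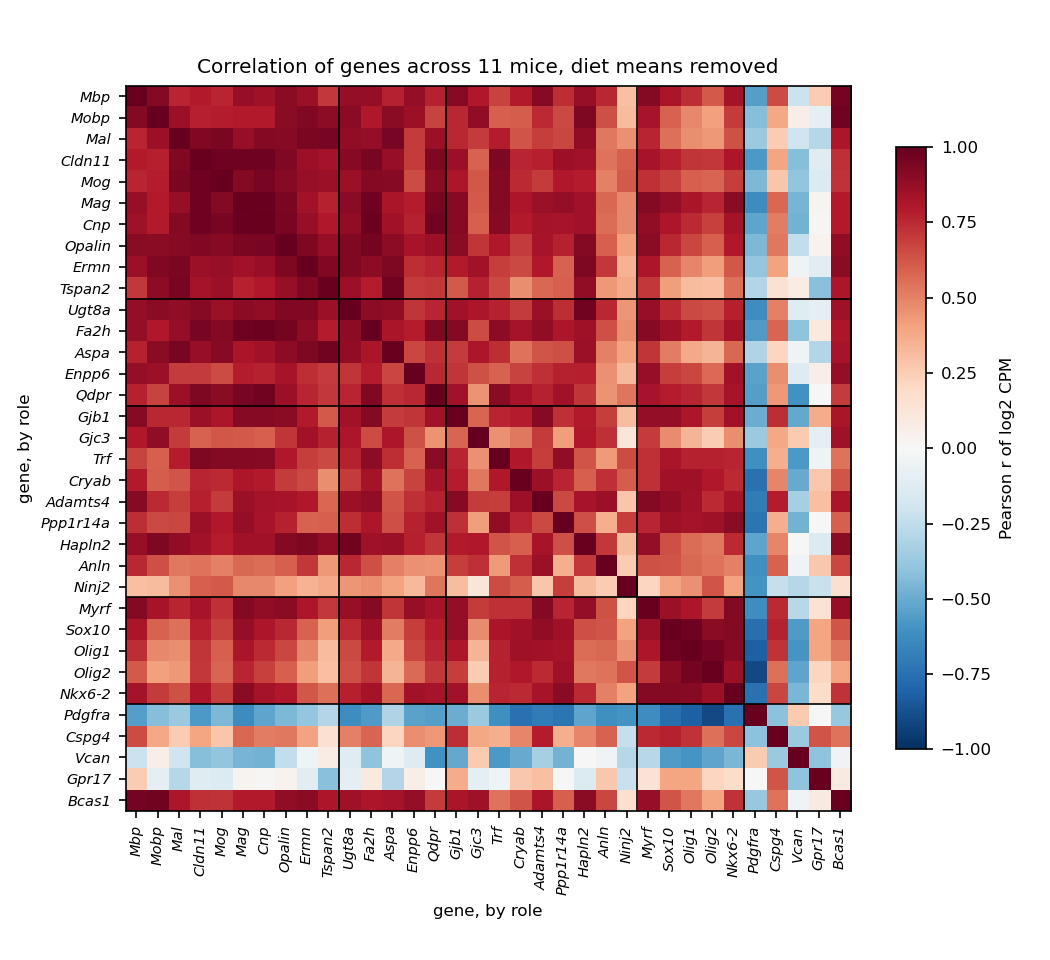
Pearson correlation of log2 CPM between the 34 genes (both axes, by role) across 11 mice after the diet means were removed; red is positive and blue negative. Most of the field is red, with a median of 0.718, and the rows of Pdgfra, Vcan and Gpr17 stand out as blue or pale.

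The genes outside all lists that were most like the mean of the 34 genes across the 11 mice were Tmem63a (r = 0.962), Litaf (r = 0.953), Enpp2 (r = 0.952), Ttyh2 (r = 0.946), Sorbs3 (r = 0.930), Pacs2 (r = 0.927), Csrp1 (r = 0.920), Myo1d (r = 0.919), Phlda3 (r = 0.917) and Gng11 (r = 0.902). They were ranked by Pearson correlation among genes that averaged 1 CPM or more, with no test. Their log2 fold changes between FD and CD mice lay between -0.13 for Myo1d and -0.0028 for Gng11.

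Since both diet groups held both sexes, males and females were compared with diet as a covariate. Of 20589 genes, 1257 were called (6.11%). Males had higher levels of 633 of these (3.07%) and lower levels of 624 (3.03%). Among the 34 genes 6 passed and all 6 were lower in males (edgeR, Benjamini-Hochberg). They were the lineage factors Olig1, Olig2 and Sox10, the iron carrier Trf, Cryab and Ppp1r14a. In 32 of the 34 genes the log2 fold change (males over females) lay below 0, against 50.9% of all genes, with a median of -0.16 (-0.0045 over all genes), and Pdgfra and Vcan were the exceptions. At an unadjusted p under 0.05 there were 17 of the 34 genes, against 20.3% of all genes, and 16 of the 17 were lower in males, against 10.3% of all genes.

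Olig2, the basic helix-loop-helix factor that defines the lineage, had 19.0, 18.7 and 21.04 CPM in CD males 1 to 3 and 20.4 and 17.5 CPM in FD males 1 and 2. Females ranged from 21.9 to 30.2 CPM with a median of 26.2. All males were below all females, which held for 1 of the 34 genes. The sexes did not overlap in 1.78% of all genes, with males lower in 0.729% (log2 fold change -0.43 ± 0.081 (SE), edgeR adjusted p = 0.0489). Its partner Olig1 had 49.96, 57.2 and 56.7 CPM in CD males and 52.7 and 42.5 CPM in FD males, and females ranged from 50.9 to 77.3 CPM with a median of 67.1. Only FD female 2, the lowest female, fell among the males (log2 fold change -0.37 ± 0.082 (SE), edgeR adjusted p = 0.0621).

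Sox10, the factor that maintains the lineage and switches on myelin genes with MYRF, had 28.9, 39.7 and 34.3 CPM in CD males and 30.7 and 26.7 CPM in FD males, while females ranged from 30.5 to 52.3 CPM with a median of 44.0. FD female 2 was the one female inside the range of the males (log2 fold change -0.46 ± 0.105 (SE), edgeR adjusted p = 0.0631). Trf had 21.6, 23.7 and 19.5 CPM in CD males and 19.8 and 21.8 CPM in FD males against 22.5 to 32.0 CPM in females, with a median of 26.4. CD male 2 was above FD female 2 and CD female 2, and the other males were below all females. The exons of Trf overlap those of Gm20425 on the same strand, so that reads of the shared exons may be missing from its count (log2 fold change -0.34 ± 0.080 (SE), edgeR adjusted p = 0.0641).

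Cryab had 42.0, 48.4 and 41.95 CPM in CD males and 52.3 and 44.7 CPM in FD males, and 47.7 to 60.5 CPM with a median of 55.3 in females. CD male 2 and FD male 1 were above the lowest female (log2 fold change -0.27 ± 0.068 (SE), edgeR adjusted p = 0.0672). Ppp1r14a had 4.30, 4.82 and 4.61 CPM in CD males and 3.95 and 4.10 CPM in FD males, and 4.64 to 8.39 CPM with a median of 5.47 in females. The single overlap was that of CD male 2 with FD female 2 (log2 fold change -0.45 ± 0.12 (SE), edgeR adjusted p = 0.0754). Whether reads were counted by strand was not stated, and Olig1 and Cryab overlap genes on the opposite strand (Gm15966 and Hspb2).

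The structural myelin genes had log2 fold changes (males over females) below 0 without passing the threshold. All 10 genes of the myelin membrane and cytoskeleton lay below 0, with a median of -0.19, from -0.05 for Tspan2 to -0.35 for Cldn11 (adjusted p = 0.106, edgeR). The interaction of diet and sex lay above 0 for all 10. In FD mice alone 10 of the 34 genes had a fold change above 0, and in CD mice alone 3 did. Over all mice, the 5 enzymes had a median of -0.14 and 0 calls. Nkx6-2 had the lowest fold change of the 34 genes (-0.55, adjusted p = 0.115, edgeR), and Ninj2 (-0.40), Gjb1 (-0.31) and Adamts4 (-0.22) were below 0 without passing the threshold. Pdgfra was the only one of the 34 genes with an unadjusted p under 0.05 and a higher level in males. It had 80.3, 78.6 and 75.5 CPM in CD males and 79.0 and 86.6 CPM in FD males, against 65.0 to 77.5 CPM in females with a median of 75.1, and it did not pass the threshold (log2 fold change 0.14 ± 0.051 (SE), edgeR adjusted p = 0.141).

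**Figure D4:**
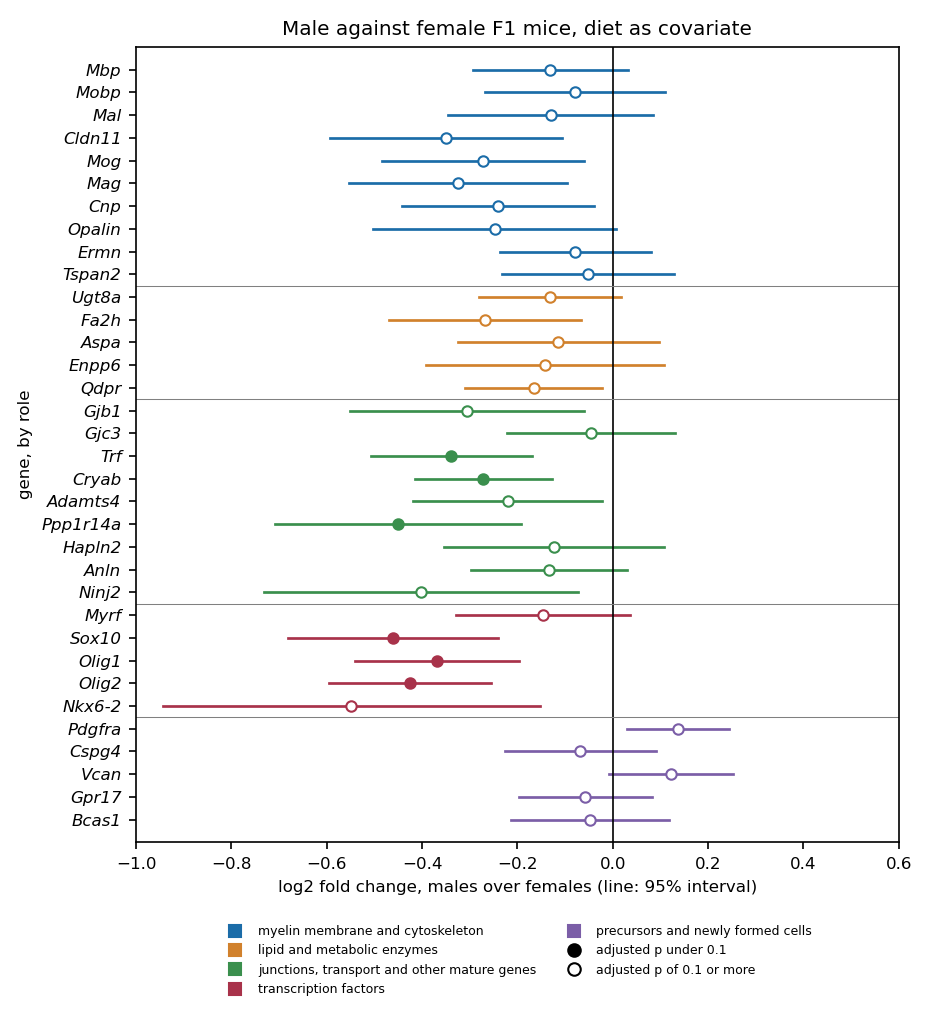
Log2 fold change of each of the 34 genes in male over female F1 mice with diet as covariate (x axis, points) and its 95% interval (lines), ordered and coloured by role; 5 males and 6 females. Filled points passed an adjusted p of 0.1 (Olig1, Olig2, Sox10, Trf, Cryab and Ppp1r14a), and only Pdgfra and Vcan lie to the right of 0.

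Measures of the libraries were read beside these calls. The share of reads outside annotated genes was 10.2% ± 0.781 (SD, n = 5) in males and 8.79% ± 1.198 (SD, n = 6) in females (exact two-sided permutation test, p = 0.0628). FD female 2, the female with the lowest level of Olig2, Olig1, Sox10, Trf, Cryab and Ppp1r14a, had the highest share of the females, 10.5%. With this share as a further covariate, which was chosen after seeing the data, 9 genes passed the threshold (0.0437%) and none of the 34 genes did. The fitted log2 fold changes were then -0.39 for Olig2, -0.32 for Olig1, -0.43 for Sox10, -0.28 for Trf, -0.26 for Cryab and -0.46 for Ppp1r14a, with adjusted p-values from 0.557 to 0.624 (edgeR), and the median over the 34 genes was -0.17.

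CD female 1, CD female 3 and FD female 3 stood apart in other measures. The share of reads with several alignments was 15.1% to 16.01% in these 3 mice and 13.7% to 14.46% in the others. Grin2b, a subunit of the NMDA receptor with a very long transcript, had 41.9 to 64.2 CPM in these 3 mice and 152 to 219 CPM in the others. Without these 3 mice, 13 genes passed the threshold between the sexes (0.065%) and none of the 34 did. The log2 fold changes were then -0.37 for Olig2, -0.30 for Olig1, -0.39 for Sox10, -0.18 for Trf, -0.19 for Cryab and -0.30 for Ppp1r14a, with adjusted p-values from 0.367 to 0.746 (edgeR, 5 males and 3 females). The median over the 34 genes was -0.08, with 6 of them above 0.

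**Figure D5:**
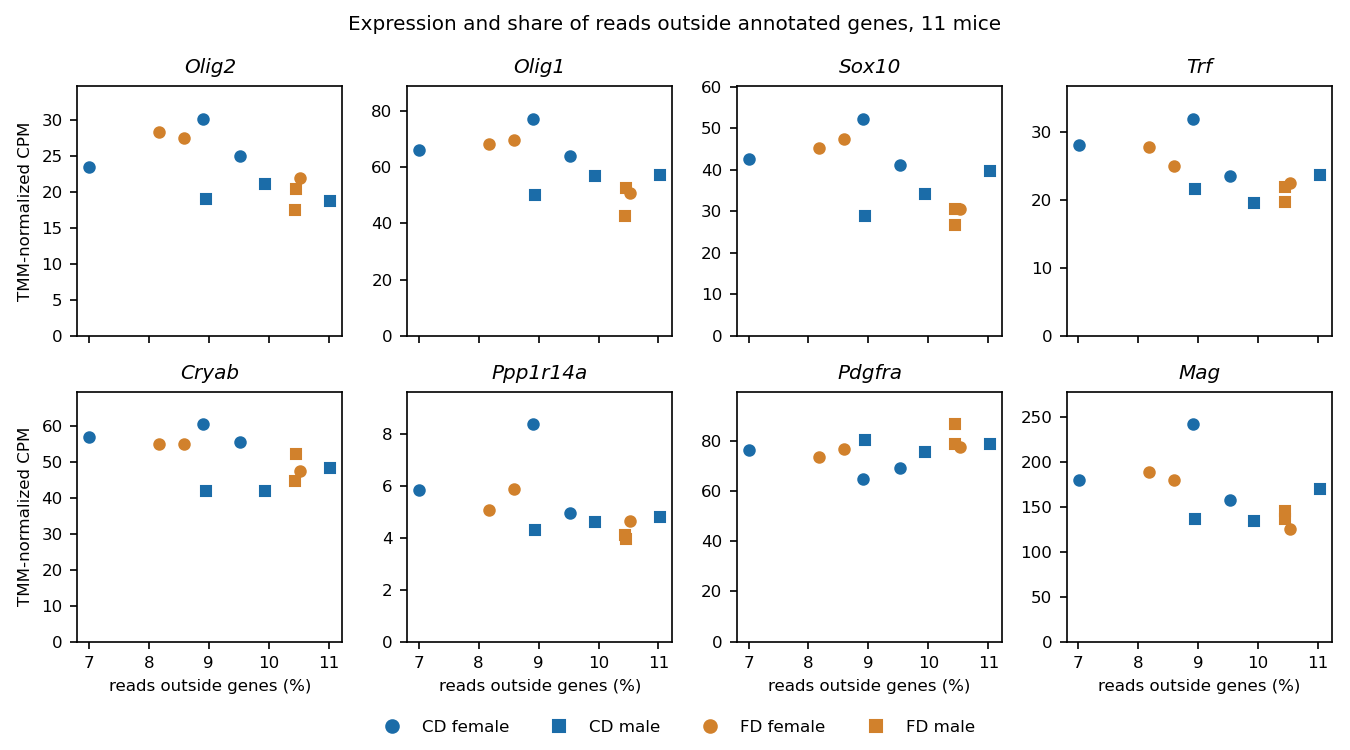
TMM-normalized CPM (y axes, from 0) of the 6 genes that passed the threshold between the sexes, of Pdgfra and of Mag, against the percentage of aligned reads outside annotated genes (x axes); each point is a mouse, circles are females, squares are males, blue is CD and orange is FD. Males lie between 8.946% and 11.03% and females between 7.008% and 10.53%, and for Olig2 every square lies below every circle.

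The difference between the sexes also moved with the base composition of genes. Across genes, which are not independent replicates, the log2 fold change (males over females) fell with the GC content of the longest transcript (Spearman's rho = -0.432, a description without a test), and it rose with transcript length (rho = 0.457). In 10 classes of equal size by GC content, its median went from 0.08 in the class with the lowest GC content to -0.14 in the class with the highest. Sox10, Olig1, Olig2 and Ppp1r14a, with 58.5% to 61.8% GC, were in the highest class. In that class 16.2% of genes were called between the sexes, against 5.47% to 11.1% in the other classes. Called genes lie far from 0 by selection, and the fold changes of these genes (-0.37 to -0.46) were further from 0 than the median of that class. So was that of Nkx6-2 in the same class (-0.55), while that of Cspg4 (-0.07) was nearer to 0. Trf (52.5% GC) and Cryab (54.4% GC) were in classes with medians of -0.04 and -0.06. The part of base composition and length in the calls was not tested.

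The calls between the sexes changed when a diet group or single mice were left out. Within CD mice 0 of the 34 genes passed, with log2 fold changes of the 6 genes between -0.34 and -0.48, and within FD mice 0 passed, with -0.12 to -0.53 (5 genes of all passed in each). Leaving out 1 mouse moved the number of the 34 genes called to between 0 and 17. It was 0 without CD female 3, CD male 1, CD male 2, FD female 3 or FD male 2, 1 without CD female 1 or FD female 1 (Olig2 in both), 3 without CD male 3, 5 without FD male 1, 13 without CD female 2 and 17 without FD female 2.

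Further genes of the lineage, outside the 34, were read from fixed lists. Of 35 further mature oligodendrocyte genes 0 passed the threshold between CD and FD mice, with a median log2 fold change of -0.04. The smallest unadjusted p in this list was that of S1pr5 (log2 fold change -0.21), followed by Sgk2 (-0.21) and Rhog (-0.16). Between the sexes 6 of the 35 were lower and 0 higher in males, against 3.03% and 3.07% of all genes. Among them were the sulfatide enzyme gene Gal3st1 (log2 fold change -0.43), Tmem88b (-0.32), the protease gene Klk6 (-1.15, at a mean of 1.04 CPM) and the actin-severing protein gene Gsn (-0.27). Gsn had 59.0 to 64.1 CPM in CD female 1, CD female 3 and FD female 3 and 42.3 to 54.1 CPM in the other mice, while Gal3st1, Tmem88b and Klk6 overlapped. The part of these libraries in the calls of this list was not tested.

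Of 23 further precursor and newly formed cell genes, 0 passed the threshold between CD and FD mice, and their median log2 fold change was 0.05, with the smallest unadjusted p for Itpr2 (0.17), Sox6 (0.15) and Ptprz1 (0.11). Between the sexes C1ql1 was lower in males (-0.36) and Sox6 (0.25) and Pcdh15 (0.52) were higher. In CD female 1, CD female 3 and FD female 3 all of them stood apart from the other mice. Pcdh15 had 6.39 to 7.54 CPM there and 11.1 to 14.6 CPM in the others. Sox6 had 18.0 to 21.1 against 23.4 to 28.7 CPM, and C1ql1 had 8.59 to 9.08 against 5.35 to 7.60 CPM. The part of these libraries in the calls was not tested. Of 21 ligands and receptors that act on the lineage, 0 passed it between CD and FD mice, and Erbb2 (0.25), Erbb4 (0.19) and Il6st (0.13) had the smallest unadjusted p. Between the sexes Lingo1 (-0.25) and Rtn4r (-0.31), both parts of a receptor that restrains myelination and axon growth, were lower in males. Igf1r (0.36) and Erbb4 (0.28) were higher. Erbb4 had 82.0 to 94.7 CPM in the same 3 females and 103 to 133 CPM in the other mice. Igf1r had 16.2 to 21.2 against 21.3 to 28.6 CPM, while Lingo1 and Rtn4r overlapped.

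Genes of other cells also passed the threshold between the sexes. Of 12 astrocyte markers Gfap (-0.17) and Ntsr2 (-0.21) were lower and Slc1a2 (0.16) was higher in males. Of 12 microglia markers C1qa (-0.27), C1qb (-0.28) and C1qc (-0.31) were lower, and of 12 neuron markers Tubb3 (-0.27) was lower. In CD female 1, CD female 3 and FD female 3, Slc1a2 had 2473 to 2752 CPM, against 2924 to 3186 CPM in the other mice. C1qa, C1qb and C1qc were higher in these 3 mice than in all others, while Gfap, Ntsr2 and Tubb3 overlapped. Microglia markers summed to 382 to 434 CPM in males and 407 to 449 CPM in females, and neuron markers to 12342 to 13652 CPM in males and 12763 to 14087 CPM in females. The part of other cells in the lower levels of the 6 genes was not tested.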

How the data were processed

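RNA of whole hippocampus was sequenced on an Illumina HiSeq2000 as single-end reads. The authors aligned trimmed reads with STAR to mm10 (GRCm38) and deposited raw counts of unique alignments per gene for each mouse. The methods name featureCounts, while the 5 summary lines of each table have the form written by HTSeq. Strand setting and annotation release are not given in the sources used here. The labels gave the diet, sex and replicate number of each mouse.

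The 34 genes and all other lists were chosen with earlier results of these data known. Names and positions came from GENCODE M21, which named 36345 of the 38293 genes. Total counts on genes ranged from 11737554 to 44447006 per mouse, so that 3 counts correspond to 0.0675 to 0.2556 CPM, which covers counting error only. The summary lines stayed out of library sizes and tests. The 11 mice were treated as separate samples.

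The statistics used edgeR 4.0.16 under R 4.3.3. The 20589 genes whose counts summed to 10 or more were scaled by TMM and compared by the quasi-likelihood test, with Benjamini-Hochberg adjustment over all of them and the threshold of 0.1 used in the study. FD and CD mice were compared without covariates, males and females with diet as covariate, and the interaction with both terms. A prior count of 2 was used for log2 CPM. Single library measures were compared by exact two-sided permutation over the 462 splits of the mice, which allow no p below 0.0022. The scripts were tested on simulated counts. Named genes were all 34 genes, the genes past the threshold in the 3 further lists of lineage genes (some of which are not reported here) or else the 3 with the smallest p between FD and CD, and the 10 genes most like the mean of the 34. Of the further lists Lhfpl3 was not matched and Carns1 had 0 counts. Alternatives were DESeq2 1.42.0, its size factors (RLE), other count filters, other covariates, the replicate block, each sex or diet alone and each mouse left out. The share of reads outside genes as a covariate and the fit without the 3 libraries with over 15% of reads with several alignments were added after seeing the data. Python 3.11.15 (pandas 2.3.3, matplotlib 3.10.9) served for tables and plots.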

Additional observations from a re-analysis of the deposited data

Results flagged for a closer look

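In FD mice, Ermn of FD female 2 (62.6 CPM) lay far below the next lowest mouse (72.5 CPM). The gap made up 0.719 of the range of the group on the log2 scale, above the critical value of Dixon's test for 5 samples (0.71). This was the one such value among 68 groups tested (34 genes in CD and in FD mice), where chance gives about 1 in 20.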

How the results depend on the processing

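No gene of the 34 was called between FD and CD mice under any of the alternatives, while the number of all genes called moved from 14. It was 8 with filterByExpr, 1 with at least 10 counts in every mouse, 2 in males only, 1 in females only, 22 with the share of reads outside genes as a covariate, 4 without the 3 libraries with over 15% of reads with several alignments and 3 to 12 without single mice. The sign of the fold change switched in 1 to 19 of the 34 genes, none of them called. The replicate block called 25 genes, 21 of them higher in FD mice, none of the 34, with a median of -0.07. Mice that share a replicate number and a sex (5 in each diet) had correlations of 0.307 to 0.540 with diet removed. With diet and sex removed these were 0.0051 to 0.386. Among mice of the same sex and the other diet, at most 3 candidates each, 8 of 10 mice correlated best with their own number. This was a hint from the data and not from the design.

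Between the sexes, 1257 genes and 6 of the 34 were called. DESeq2 called 2043 genes and 9 of the 34. Without a count filter there were 2645 genes and 17 of the 34, without the diet covariate 37 and 1, in CD mice only 5 and 0, in FD mice only 5 and 0, without those 3 libraries 13 and 0, and with the share of reads outside genes as a covariate 9 and 0. Leaving out 1 mouse gave 18 to 3244 genes and 0 to 17 of the 34. For the interaction, 0 genes were called, against 10 without a count filter and 1 without CD female 3 (0 without any other mouse). Adjusted p-values of the 6 genes lay between 0.0489 and 0.0754. The lowest count of the 34 genes in a mouse was 20, for Ninj2, where single counts weigh most.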
